A study of Rattus norvegicus with 10 samples.

Results

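Hypoxia and HIF target genes were read in whole livers of 10 male Wistar rats with cirrhosis from inhaled CCl4. The Ang2 inhibitor CVX-060 went into the tail vein of 5 of them at a weekly dose of 10 mg/kg over 4 weeks, and the other 5 had weekly vehicle. The group comprised Hif1a, Egln3, Slc2a1, Hk2, Pgk1, Ldha, Pdk1, Vegfa, Ndrg1 and Bnip3, listed by name, and all 10 had a probe set with a single gene symbol among the 14217 genes measured. Where a gene had several probe sets, the most variable one over the 10 rats was used, and its value is a log2 signal that the authors had normalized between arrays. Every rat, treated or not, had cirrhosis, the age of the rats is not given in the labels, and no healthy liver entered these comparisons. The difference between the groups therefore addressed whether Ang2 inhibition altered the oxygen-dependent transcripts of cirrhotic liver, while oxygen itself was not among the values analysed here.

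The cellular answer to low oxygen runs through the hypoxia-inducible factors, in which an unstable alpha subunit such as HIF-1α, encoded by Hif1a, pairs with the stable subunit encoded by Arnt. When oxygen is present, prolyl hydroxylases of the Egln family mark the alpha subunit for destruction, and when oxygen falls the dimer binds DNA and raises genes of glucose uptake, glycolysis, vessel growth and mitophagy. This control acts mostly on the protein, so that the level of Hif1a mRNA does not read the activity of the factor and its targets are the usual transcript readout. In liver, blood flows from the oxygen-rich periportal zone to the oxygen-poor pericentral zone, and scarring and abnormal vessels disturb this flow in cirrhosis.

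HIF dimers bind a short core in DNA, spelled ACGTG or GCGTG. The promoters of a few targets are shown to display where this core stands in genes whose values follow. RefSeq windows on the GRCr8 rat assembly were found for 8 of the 10 genes, with Pgk1 and Ndrg1 not matched. Each sequence holds the 250 bases before the annotated start, read 5′ to 3′ on the strand of the gene, with capitals marking each core on either strand.

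Ldha, chr1:106507842-106508091, plus strand: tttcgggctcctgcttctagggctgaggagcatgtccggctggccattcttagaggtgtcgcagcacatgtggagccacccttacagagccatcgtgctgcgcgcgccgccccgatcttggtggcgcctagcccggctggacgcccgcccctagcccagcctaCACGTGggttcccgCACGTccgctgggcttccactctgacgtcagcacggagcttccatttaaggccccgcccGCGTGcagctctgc

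Slc2a1, chr5:138002272-138002521, plus strand: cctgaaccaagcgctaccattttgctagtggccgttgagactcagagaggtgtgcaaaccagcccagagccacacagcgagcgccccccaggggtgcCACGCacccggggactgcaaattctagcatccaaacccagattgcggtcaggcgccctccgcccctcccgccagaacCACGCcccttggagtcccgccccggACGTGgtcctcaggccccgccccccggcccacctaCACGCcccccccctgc

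Bnip3, chr1:203154963-203155212, minus strand: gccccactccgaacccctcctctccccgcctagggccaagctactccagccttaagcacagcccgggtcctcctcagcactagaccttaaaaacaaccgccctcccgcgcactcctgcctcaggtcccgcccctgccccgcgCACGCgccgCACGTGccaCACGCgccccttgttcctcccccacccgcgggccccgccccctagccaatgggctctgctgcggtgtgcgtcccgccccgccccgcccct

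Vegfa, chr9:22452604-22452853, plus strand: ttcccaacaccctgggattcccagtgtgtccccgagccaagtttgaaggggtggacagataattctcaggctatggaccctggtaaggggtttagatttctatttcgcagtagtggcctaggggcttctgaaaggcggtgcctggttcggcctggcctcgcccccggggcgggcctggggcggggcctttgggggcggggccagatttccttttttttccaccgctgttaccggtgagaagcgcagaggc

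Egln3, chr6:77411016-77411265, minus strand: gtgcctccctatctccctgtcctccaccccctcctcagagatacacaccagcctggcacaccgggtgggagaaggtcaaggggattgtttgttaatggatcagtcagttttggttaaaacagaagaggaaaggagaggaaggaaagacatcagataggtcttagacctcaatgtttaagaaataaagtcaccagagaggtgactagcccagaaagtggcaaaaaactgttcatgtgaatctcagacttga

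At least 1 core of either spelling, on either strand, was found before an annotated start of 5 of these 8 genes. These were Hif1a, Slc2a1, Pdk1, Ldha and Bnip3, and no window of Vegfa, Hk2 or Egln3 held one. For 6 of the 8 genes a window lay at the annotated edge of the gene, while those of Hif1a and Pdk1 did not. Among all 33469 promoter windows of the same length, 36.7% held such a core, 16.6% held ACGTG and 25.9% held GCGTG. In Hif1a, Ldha and Bnip3 an ACGTG core overlapped its own complement to form CACGTG, an E-box letter sequence that 5.59% of all windows held. A match is only a match of letters, and a window without one says nothing of cores farther away.

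None of the 10 genes passed the test for a difference between CVX-060 and vehicle. The limma fit called 0 of them at an adjusted p under 0.05, as it called 0% of the 14217 genes, and the lowest adjusted p of any gene was 0.99997. At an unadjusted p under 0.05 the count was 0 of 10, against 2.44% of all genes, and the vehicle and CVX-060 values overlapped for each of the 10, where 0.485% of all genes had values that did not overlap. The mean was higher with CVX-060 for 8 genes and lower for Hif1a and Vegfa, with log2 differences from -0.22 to 0.31 and a median of 0.09. Over all genes 52.6% were higher, and the median difference was 0.01. Without CVX-060 rat 4 the median of the 10 genes was -0.01. In whole liver RNA, fewer cells of a type and less RNA per cell cannot be told apart.

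Background was set for each array from 20 probe sets for odorant, pheromone and trace amine receptors, which liver should lack, at the 95th percentile of their signals, which ranged from 5.34 to 6.06 over the arrays. In 8 of the 10 genes the signal lay above it in all rats, whereas Egln3 exceeded it in 3 rats and Hk2 in 0. Probe sets differ in how well they bind, so that the signal of 1 gene was not set against that of another.

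**Figure D1:**
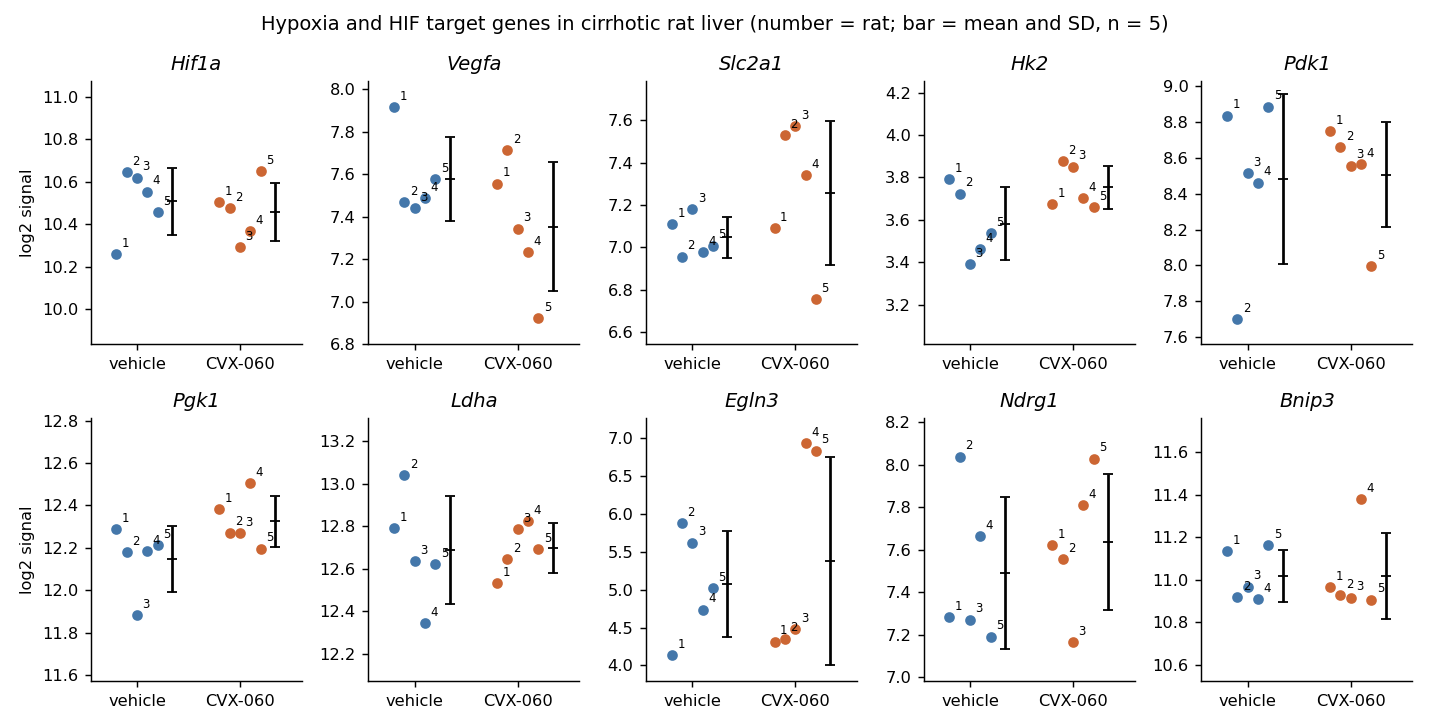
Log2 signal (vertical axes) of the 10 genes in each vehicle and CVX-060 rat, each point a rat with its number, beside the mean and SD of its group (n = 5). The groups overlap in every panel, and Egln3 has the widest spread, from 4.13 to 6.93.

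Hif1a, the oxygen-regulated alpha subunit, lay at 10.26, 10.65, 10.62, 10.55 and 10.46 in vehicle rats 1 to 5 and at 10.51, 10.48, 10.29, 10.37 and 10.65 in CVX-060 rats 1 to 5. Its means were 10.51 ± 0.16 (SD, n = 5) and 10.46 ± 0.14 (SD, n = 5), a log2 difference of -0.05 with a standard error of 0.10 (p = 0.627 in a two-sided exact permutation test, as for every exact p that follows). The 95% interval from limma ran from 0.835 to 1.12 as a ratio of CVX-060 to vehicle. Vehicle rat 1 had the lowest signal, CVX-060 rats 3 and 4 lay below the other 4 vehicle rats, and the groups overlapped. With each rat left out in turn the difference ranged from -0.11 without vehicle rat 1 to -0.01 without CVX-060 rat 3.

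Egln3, the prolyl hydroxylase PHD3 and itself a HIF target, had log2 signals of 4.13, 5.87, 5.62, 4.74 and 5.02 in vehicle rats 1 to 5. In CVX-060 rats 1 to 5 it lay at 4.32, 4.35, 4.48, 6.93 and 6.83. CVX-060 rats 4 and 5 were thus above every vehicle rat, while CVX-060 rats 1, 2 and 3 were below all vehicle rats but rat 1. Bmal1, a clock gene, divided the CVX-060 rats in the same way, at 8.38, 8.75 and 8.17 in rats 1 to 3 and 5.75 and 5.21 in rats 4 and 5. Vehicle rats did not follow this, as rats 1 and 2, with Bmal1 at 7.90 and 7.95, had the lowest and the highest Egln3 of their group. How Bmal1 and Egln3 relate was not tested. The means were 5.08 ± 0.70 (SD, n = 5) and 5.38 ± 1.37 (SD, n = 5), with a difference of 0.31 (standard error 0.60, exact permutation p = 0.643) and an interval from 0.491 to 3.12 as a ratio. Its size and direction moved with single rats and settings. The difference was -0.08 without CVX-060 rat 4 and -0.06 without CVX-060 rat 5, but 0.53 to 0.57 without any 1 of CVX-060 rats 1, 2 and 3, 0.51 without vehicle rat 2 and 0.07 without vehicle rat 1. It was -0.07 with array weights and 0.78 with the level of the clock gene Bmal1 as a covariate, and none of these settings gave an unadjusted p under 0.05 in limma. The 3 rats in which Egln3 exceeded background were vehicle rat 2 and CVX-060 rats 4 and 5, and in the other 7 its level is uncertain.

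Slc2a1, which encodes the glucose transporter GLUT1, lay at 7.11, 6.96, 7.18, 6.98 and 7.01 in vehicle rats 1 to 5 and at 7.09, 7.53, 7.57, 7.34 and 6.76 in CVX-060 rats 1 to 5. The means were 7.05 ± 0.10 (SD, n = 5) and 7.26 ± 0.34 (SD, n = 5). CVX-060 rats 2, 3 and 4 were above all vehicle rats, and CVX-060 rat 5 was below them all. The difference was 0.21 (standard error 0.15, exact permutation p = 0.214), a ratio of 1.16 with an interval from 0.924 to 1.45. Without CVX-060 rat 5 it was 0.34 (unadjusted limma p = 0.0113), and without both vehicle rat 2 and CVX-060 rat 5 it was 0.31 (unadjusted limma p = 0.0242, exact permutation p = 0.0857), neither of which passed when adjusted over all genes. In the other direction, it was 0.13 without CVX-060 rat 3, 0.14 without CVX-060 rat 2 and 0.14 with the level of Bmal1 as a covariate, with no unadjusted p under 0.05 in limma.

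Pgk1, the phosphoglycerate kinase of glycolysis, lay at 12.29, 12.18, 11.88, 12.19 and 12.21 in vehicle rats 1 to 5 and at 12.38, 12.27, 12.27, 12.50 and 12.20 in CVX-060 rats 1 to 5. The means were 12.15 ± 0.16 (SD, n = 5) and 12.33 ± 0.12 (SD, n = 5). Its difference of 0.18 (standard error 0.09) had the smallest exact permutation p of the 10 genes, 0.0794. Vehicle rat 3 lay apart below its group, and without it the difference was 0.11. Another Pgk1 probe set above background in all rats gave 0.13, and the last, below background in all rats, gave 0.04.

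Hk2, the hexokinase of growing and hypoxic tissue, lay at 3.79, 3.72, 3.39, 3.46 and 3.54 in vehicle rats 1 to 5 and at 3.68, 3.88, 3.85, 3.70 and 3.66 in CVX-060 rats 1 to 5. The means were 3.58 ± 0.17 (SD, n = 5) and 3.75 ± 0.10 (SD, n = 5). These signals lay below background on all 10 arrays, and the difference of 0.17 (standard error 0.09, exact permutation p = 0.0952) is therefore uncertain in size. Ldha, the lactate dehydrogenase subunit that turns pyruvate into lactate, lay at 12.79, 13.04, 12.64, 12.34 and 12.62 in vehicle rats 1 to 5 and at 12.53, 12.65, 12.79, 12.83 and 12.69 in CVX-060 rats 1 to 5. The CVX-060 values all lay within the vehicle range. Its difference was 0.01 (standard error 0.12, exact permutation p = 0.944), with an interval from 0.837 to 1.21 as a ratio.

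Pdk1, the kinase that keeps pyruvate out of the mitochondrial oxidation pathway, lay at 8.83, 7.70, 8.51, 8.46 and 8.89 in vehicle rats 1 to 5 and at 8.75, 8.66, 8.56, 8.57 and 7.998 in CVX-060 rats 1 to 5. Vehicle rat 2 and CVX-060 rat 5 were the lowest of their groups by a wide gap. The difference was 0.03 (standard error 0.22, exact permutation p = 0.889), and it was -0.17 without vehicle rat 2 and 0.15 without CVX-060 rat 5. A second Pdk1 probe set, also above background in all rats, gave -0.07.

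Vegfa, the growth factor through which hypoxic tissue recruits vessels, lay at 7.92, 7.47, 7.44, 7.49 and 7.58 in vehicle rats 1 to 5 and at 7.56, 7.71, 7.34, 7.23 and 6.92 in CVX-060 rats 1 to 5. CVX-060 rats 3, 4 and 5 were below every vehicle rat, and vehicle rat 1 was above every other rat. The means were 7.58 ± 0.20 (SD, n = 5) and 7.35 ± 0.30 (SD, n = 5), and CVX-060 lay lower by a log2 difference of -0.22 (standard error 0.15, exact permutation p = 0.214), a ratio of 0.856 with an interval from 0.680 to 1.08. A second Vegfa probe set gave -0.25 (exact permutation p = 0.0873), and the 2 probe sets had an r of 0.918 over the 10 rats. The difference was -0.12 without CVX-060 rat 5 and -0.14 without vehicle rat 1, and it was -0.31 without CVX-060 rat 2. With array weights it was -0.10, and none of these settings gave an unadjusted p under 0.05 in limma. The level of Bmal1 was 4.87 to 7.95 in vehicle and 5.21 to 8.75 in CVX-060 rats, a difference of 1.11 (exact permutation p = 0.214). With Bmal1 as a covariate in limma the Vegfa difference was -0.35 (unadjusted p = 0.0158), and 0 genes passed when adjusted over all.

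Ndrg1, a stress-responsive gene long used as a hypoxia marker, lay at 7.28, 8.04, 7.27, 7.66 and 7.19 in vehicle rats 1 to 5 and at 7.62, 7.56, 7.17, 7.81 and 8.03 in CVX-060 rats 1 to 5. Its difference was 0.15 (standard error 0.19, exact permutation p = 0.508), and it was 0.05 without CVX-060 rat 5 and 0.29 without vehicle rat 2. A second Ndrg1 probe set, above background in all rats, gave 0.09 but did not follow the first over the rats (r = -0.04). Bnip3, a mitophagy receptor, lay at 11.14, 10.92, 10.97, 10.91 and 11.16 in vehicle rats 1 to 5 and at 10.96, 10.93, 10.92, 11.38 and 10.91 in CVX-060 rats 1 to 5. Its difference was 0.001 (standard error 0.11, exact permutation p = 1), with an interval from 0.851 to 1.18 as a ratio. CVX-060 rat 4 held the highest Bnip3 signal, and without it the difference was -0.09.

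**Figure D2:**
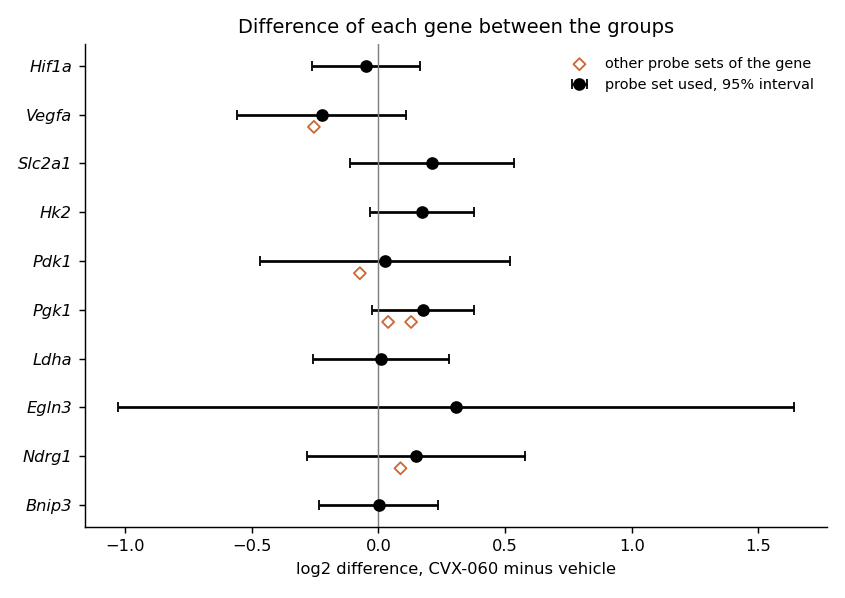
Log2 difference, CVX-060 minus vehicle (horizontal axis), of the 10 genes, with the 95% interval from limma as bars and other probe sets of a gene as open diamonds. Every interval includes 0, and that of Egln3 is the widest, from -1.03 to 1.64.

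The 10 genes were not high or low together in most rats. In CVX-060 rat 4, 8 of the 10 lay above their own mean over all rats, with an average deviation of 0.27 on the log2 scale, or 0.11 when Egln3 was left out. In the other 9 rats 3 to 6 of the genes lay above their own mean, and the average deviation with Egln3 counted in lay between -0.12 and 0.06. With Egln3 left out, it ran in these 9 rats from -0.11 in CVX-060 rat 5 to 0.10 in CVX-060 rat 2. On that basis CVX-060 rat 4 did not stand apart. On the first principal component of all genes, vehicle rat 2 and CVX-060 rat 5 lay far from the others, with scores of 34.5 and 35.5 where the other 8 had -26.2 to 9.74. These 2 rats had the 2 highest signals of Hif1a and of Ndrg1 and the 2 lowest signals of Slc2a1 and of Pdk1.

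Over the 10 rats, 28 of the 45 pairs of genes had a positive Pearson r and 17 a negative one, with a median of 0.08. After Benjamini-Hochberg adjustment of a two-sided permutation test, 0 pairs passed an adjusted p of 0.05, by Pearson's r or by Spearman's rho (unadjusted p under 0.05 in 3 and 7 pairs). Hif1a correlated negatively with 7 of the other 9 genes, the exceptions being Egln3 and Ndrg1. The other Ndrg1 probe set gave an r of -0.12 with Hif1a. Without vehicle rat 2 and CVX-060 rat 5 the sign of r was kept in 36 of the 45 pairs, and Hif1a was again negative with 7 of 9. Genes measured in the same liver share its cell makeup and its array.

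**Figure D3:**
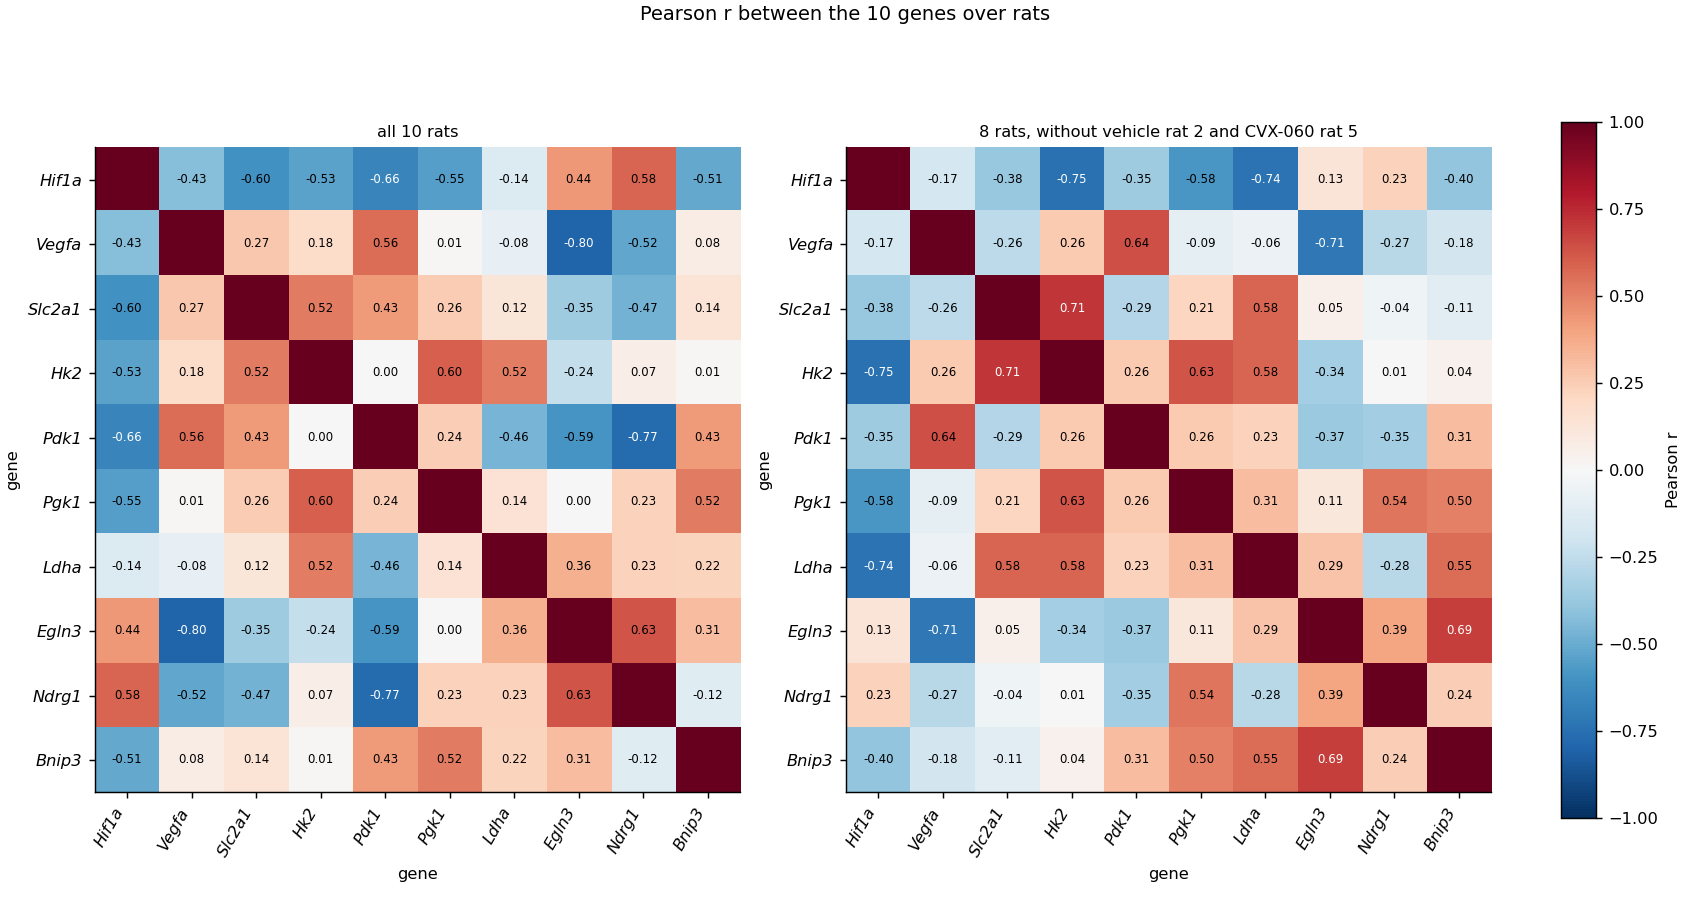
Pearson r between each pair of the 10 genes (both axes) over all 10 rats on the left and over the 8 rats without vehicle rat 2 and CVX-060 rat 5 on the right, with red positive and blue negative. The most negative r is that of Egln3 and Vegfa on the left, -0.80, and that of Hif1a and Hk2 on the right, -0.75. Hk2 lay below background in all rats.

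Over all 10 rats the most negative r was that of Egln3 and Vegfa, with r = -0.80 (permutation p = 0.0030, adjusted p = 0.112) and rho = -0.78 (permutation p = 0.0112, adjusted p = 0.314). The rats with the most Egln3, CVX-060 rats 4 and 5, had the least Vegfa, and vehicle rat 1 had the least Egln3 and the most Vegfa. CVX-060 rats 4 and 5 also had the lowest Bmal1 of their group, 5.75 and 5.21. Leaving out the 2 rats farthest from the median of Vegfa, CVX-060 rat 5 and vehicle rat 1, r was -0.68. Leaving out each rat in turn, r ranged from -0.88 to -0.70, and with each group centred on its own mean it was -0.83. The other Vegfa probe set gave an r of -0.66 with Egln3. Egln3 was above background in only 3 of these rats. Over the 8 rats without vehicle rat 2 and CVX-060 rat 5 its r with Vegfa was -0.71, and Hif1a was more negative with Hk2 (r = -0.75, adjusted permutation p = 0.527) and with Ldha (r = -0.74, adjusted permutation p = 0.527). Over all 10 rats r was -0.53 for Hif1a and Hk2 and only -0.14 for Hif1a and Ldha. Hk2 lay below background in all rats, so that its r is uncertain. Pdk1 and Ndrg1 had r = -0.77 (permutation p = 0.0050, adjusted p = 0.112) and rho = -0.60 (permutation p = 0.0731, adjusted p = 0.329), but r was -0.35 without vehicle rat 2 and CVX-060 rat 5, so that this relation rests on those rats. The other Ndrg1 probe set gave an r of -0.30 with Pdk1, and the other Pdk1 probe set gave -0.73 with Ndrg1. Hif1a and Pdk1 had r = -0.66 (permutation p = 0.0336, adjusted p = 0.385) and rho = -0.73 (permutation p = 0.0201, adjusted p = 0.314), with r = -0.73 without the 2 rats farthest from the median of Hif1a and r = -0.35 over the 8 rats.

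**Figure D4:**
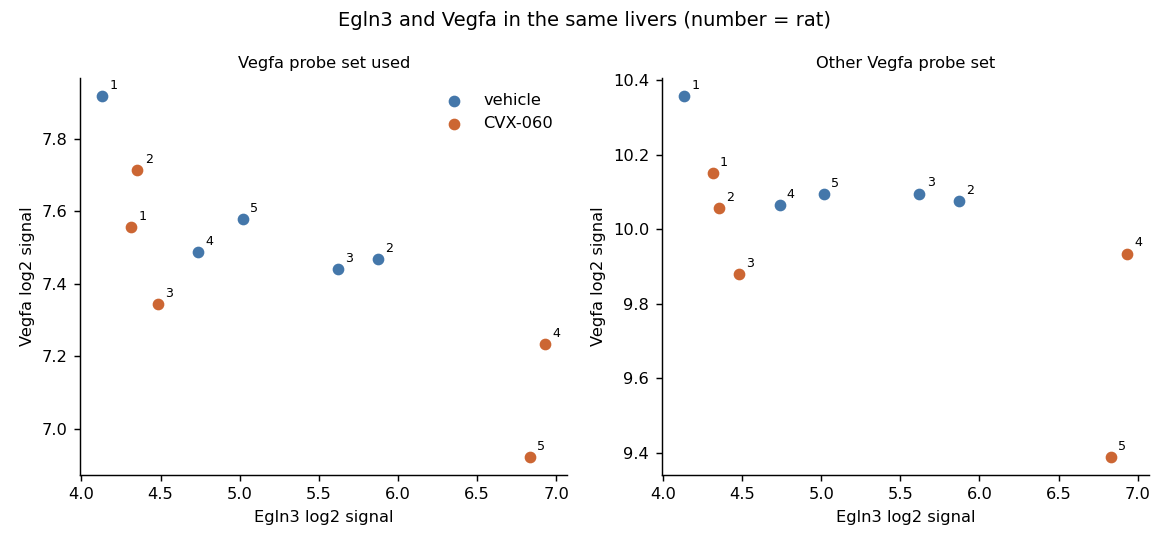
Log2 signal of Egln3 (horizontal axis) against that of Vegfa (vertical axis) in each rat, for the Vegfa probe set used on the left and its other probe set on the right, with the number of the rat beside each point. CVX-060 rats 4 and 5 have the highest Egln3, 6.93 and 6.83, and vehicle rat 1 the lowest, 4.13.

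The genes nearest to each of the 10 were sought among the 7526 genes above background in all rats, as the highest Pearson r over the 10 rats. These values are the largest of many and are given as a description only. Vegfa ran closest to Ier2, an immediate early gene (r = 0.926), and to Lrig3 (r = 0.925). Ndrg1 ran closest to Rps29, a ribosomal protein gene (r = 0.989), and to Eif3f, a subunit of a translation initiation factor (r = 0.978). Egln3 ran closest to Ccdc149 and Morf4l2 (r = 0.985 for each), Hif1a to the desmosome gene Dsp (r = 0.948) and the phosphatase gene Ptpn13 (r = 0.945), and Pdk1 to Vamp7 (r = 0.945) and Serpina3l (r = 0.933). For Pdk1 and Serpina3l r was 0.289 without vehicle rat 2 and CVX-060 rat 5. Hk2, below background in all rats, ran closest to Lrg1 (r = 0.875) and Leo1 (r = 0.865). Bnip3 ran closest to Dcps (r = 0.917) and Fra10ac1 (r = 0.909), and Pgk1 to Kmt5c (r = 0.903) and Aup1 (r = 0.849). Ldha ran closest to Hddc2 (r = 0.898) and Timm10b (r = 0.839), and Slc2a1 to Ubqln1 (r = 0.851) and Slc6a17 (r = 0.842).

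Around the 10 genes, 51 further genes of the HIF pathway were measured, with 26 higher and 25 lower. In limma 0 of them passed an adjusted p of 0.05, against 0% of all genes. At an unadjusted p under 0.05 the count was 0 of 51, against 2.44% of all genes. Among HIF subunits and oxygen sensors, with Hif1a and Egln3 counted in, 6 of 10 were higher with CVX-060 and 4 lower, with a median log2 difference of 0.01. Epas1, which encodes HIF-2α, went from 11.41 ± 0.19 (SD, n = 5) to 11.45 ± 0.08 (SD, n = 5), a difference of 0.04 (exact permutation p = 0.690). The hydroxylase gene Egln1 differed by -0.09 (exact permutation p = 0.190), Cited2, which competes with HIF for a coactivator, by -0.23 (exact permutation p = 0.476), and Vhl, the ubiquitin ligase subunit that recognises hydroxylated HIF, by -0.10 (exact permutation p = 0.667). Egln1 lay above background in 9 rats.

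Of 19 glucose uptake and glycolysis genes 15 were higher and 4 lower. Slc2a1, Hk2, Pgk1, Ldha and Pdk1 are counted in, and all of them were among the higher. Their median log2 difference was 0.06. Pfkfb3, which makes an activator of glycolysis, differed by 0.42 (exact permutation p = 0.230) and lay above background in 6 rats. It was highest in CVX-060 rats 4 and 5, at 6.84 and 6.95, the same rats that were highest in Egln3, and between 5.41 and 6.28 in the other 8. Its relative Pfkfb4 differed by 0.19 (exact permutation p = 0.222) and Aldoc, an aldolase, by 0.09 (exact permutation p = 0.0476), both above background in 1 rat.

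Of 32 other HIF targets, with Vegfa, Ndrg1 and Bnip3 counted in, 13 were higher and 19 lower. Their median log2 difference was -0.06. Angptl4, a lipase inhibitor that PPAR factors also raise, lay at 10.96, 11.19, 8.98, 9.49 and 9.95 in vehicle rats 1 to 5 and at 9.98, 9.64, 8.62, 8.90 and 9.52 in CVX-060 rats 1 to 5, a difference of -0.78 (exact permutation p = 0.167). Ankrd37, a direct HIF target of unclear role, lay at 6.59, 6.08, 6.58, 7.32 and 7.999 in vehicle rats and at 5.40, 6.30, 5.10, 7.81 and 6.20 in CVX-060 rats, a difference of -0.75 (exact permutation p = 0.238). It lay above background in 8 rats, all but CVX-060 rats 1 and 3. Vehicle rat 5 and CVX-060 rat 4 were highest, of which CVX-060 rat 4 was also highest in Egln3. Adm, the vasodilator adrenomedullin, differed by 0.20 (exact permutation p = 0.270) and lay above background in 2 rats. The groups overlapped for all 3 genes.

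**Figure D5:**
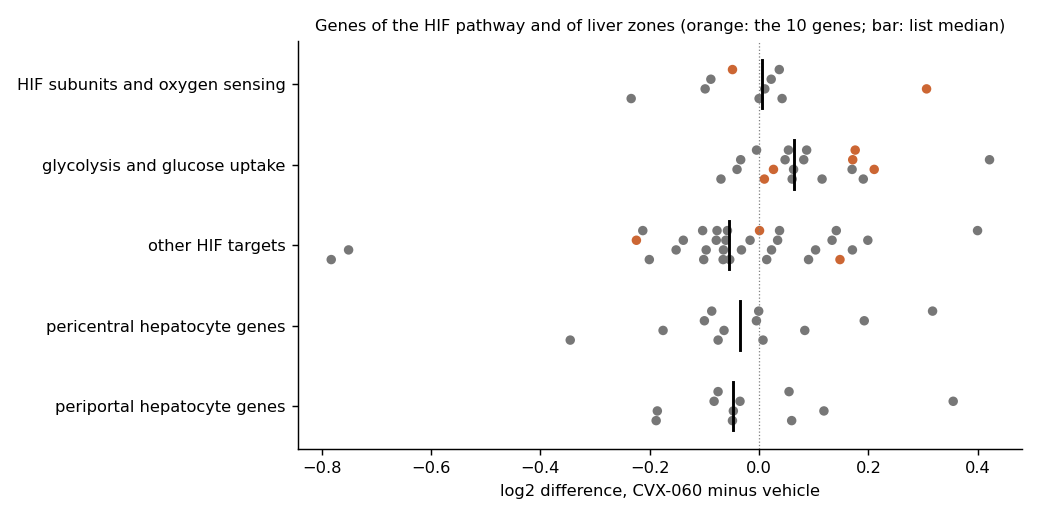
Log2 difference, CVX-060 minus vehicle (horizontal axis), of each measured gene in 5 lists (rows), with orange for the 10 genes described here, grey for others and a black bar for the list median. The medians lie between -0.06 and 0.06.

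Hepatocyte genes of the 2 zones of the lobule were also compared, while its oxygen gradient was not measured. Of 12 pericentral genes 4 were higher (median -0.03) and of 11 periportal genes also 4 (median -0.05). In limma 0 of either list had an unadjusted p under 0.05, against 2.44% of all genes. Glul, the glutamine synthetase of the last pericentral hepatocytes, differed by 0.19 (exact permutation p = 0.413), Slc13a3, a dicarboxylate transporter, by 0.32 (exact permutation p = 0.325) and the transcription factor gene Tbx3 by -0.35 (exact permutation p = 0.437). Slc13a3 and Tbx3 lay above background in 6 rats each. Of the periportal genes, Ass1 of the urea cycle differed by 0.12 (exact permutation p = 0.183), Hsd17b13, a lipid droplet protein gene, by -0.19 (exact permutation p = 0.341) and Hal, the histidine ammonia-lyase gene, by 0.36 (exact permutation p = 0.460).

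The tissue label was checked on hepatocyte markers, of which 7 of 8 lay above background in all rats, and their mean log2 signal was 11.82 to 11.98 in vehicle and 11.91 to 11.96 in CVX-060 rats. The exception, Fgb, lay above background in 0 rats. A probe set below background, as for Hk2, therefore need not mean that liver lacks the transcript. All 6 sinusoidal endothelial markers were higher, with a median log2 difference of 0.34 and mean signals of 8.21 to 8.85 and 8.66 to 9.15. All 8 macrophage markers were higher, by a median of 0.27 (9.21 to 9.68 and 9.31 to 10.16), and 8 of 9 stellate and myofibroblast markers were higher, by a median of 0.14 (7.15 to 7.77 and 7.32 to 7.98). Of 6 cholangiocyte markers 4 were higher, the median being 0.03 (5.06 to 6.20 and 5.18 to 6.15), of 6 neutrophil markers also 4, the median being 0.16 (4.70 to 6.74 and 4.83 to 7.04), of 7 T cell markers 4, the median being 0.02 (5.11 to 5.40 and 5.13 to 5.30) and of 4 red cell markers 1, the median being -0.12 (6.24 to 6.83 and 6.28 to 6.67). None of these marker genes passed an adjusted p of 0.05 in limma. The 3′ minus 5′ log2 signal of the β-actin control probe sets, which depends on RNA integrity and labelling, was 1.35 to 1.69 in vehicle and 1.68 to 2.09 in CVX-060 rats, a difference of 0.27 (exact permutation p = 0.0159). For GAPDH it differed by 0.12 (exact permutation p = 0.0556) and for hexokinase by 0.01 (exact permutation p = 0.897). The part of cell makeup and RNA quality in the differences of the 10 genes was not tested.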

How the data were processed

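Whole-liver RNA of 5 vehicle and 5 CVX-060 rats was hybridised to Affymetrix rat arrays, 1 per rat. For its own analysis the paper kept 2 replicates of each treatment after quality control and does not name them. All 10 arrays were used here. The authors deposited 1 log2 value per probe set, already normalized between arrays (array medians 5.52 to 5.57). R 3.4.0, limma 3.38.2 and affy 1.56.0 stand in the notes of the submitters, and the background correction and summary method are not given in the sources used here. Of 31099 probe sets, those with no symbol (9780), with several (436) and for controls (57) were dropped, and 20826 for 14217 genes remained, and symbols came from the platform annotation. One probe set per gene, that of highest variance, was compared between groups with limma 3.58.1 (lmFit, eBayes; R 4.3.3), and p-values were adjusted over every gene tested by the Benjamini-Hochberg method. Exact permutation tests on all 10 rats used all 252 splits, with 0.00794 as the smallest possible p. Those on 8 rats used all 70 splits, for which the smallest possible p is larger. Correlations used 100000 permutations, or all orders for 8 rats. Other steps ran in Python 3.11.15 (scipy 1.17.1, pandas 2.3.3, numpy 2.4.6), figures in matplotlib 3.10.9, and the tests were checked on simulated data. Other settings tried were every probe set or that of highest mean, dropping genes below the 40th percentile, renormalization, array medians set to 0, array weights, a trend and robust prior, a block for the replicate number, leaving out each rat, both rats that stand apart left out and Bmal1 as a covariate. The named genes are the 10 members, Epas1, up to 3 further genes of each pathway list by the smallest p and the 2 nearest genes of each member. Bmal1, Fgb, Lyve1 and C1qc are also named, beside the results they bear on. The members, lists and alternatives were chosen with earlier results of these data known. The labels call the rats biological replicates, and the number of arrays limits the precision.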

Additional observations from a re-analysis of the deposited data

Results flagged for a closer look

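Of the 20 sets of 5 rats examined, 1 for each of the 10 genes and each group, 3 held a rat whose gap to its neighbour exceeded 0.71 of the range of the group, a gap that chance gives in about 1 of 20 such sets. Pdk1 lay at 7.998 in CVX-060 rat 5, where the other CVX-060 rats lay between 8.56 and 8.75. Pgk1 lay at 11.88 in vehicle rat 3, where the other vehicle rats lay between 12.18 and 12.29. Bnip3 lay at 11.38 in CVX-060 rat 4, where the other CVX-060 rats lay between 10.91 and 10.96.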

How the results depend on the processing

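Under each alternative run, 0 genes and 0 of the 10 members passed an adjusted p of 0.05 in limma, with the lowest adjusted p of any gene, 0.589, reached with Bmal1 as a covariate. The median difference of the members was 0.02 to 0.12 under the alternatives that kept all rats or left out both rats that stand apart, and -0.01 to 0.14 when each rat was left out in turn, with 0 genes and 0 members called each time. These medians are not all over the same set. The 0.02 came from the filter at the 40th percentile, without Hk2 and Egln3. With every probe set the median, 0.04, was taken over all probe sets of the members. No pair of members passed when each group was centred on its own mean (6 pairs at an unadjusted p under 0.05) or over 8 rats (3 pairs). The difference of Pdk1 turned to -0.073 with the probe set of highest mean and to -0.041 without both rats that stand apart, that of Bnip3 to -0.0052 with array medians set to 0 and to -0.027 with array weights, that of Egln3 to -0.074 with array weights and that of Ldha to -0.043 with Bmal1 as a covariate, and the cause was not tested. With each rat left out in turn, the differences ranged from -0.17 to 0.15 for Pdk1, from -0.076 to 0.098 for Ldha, from -0.081 to 0.57 for Egln3 and from -0.090 to 0.037 for Bnip3, and the other 6 kept their direction. Hk2 had an unadjusted p of 0.0312 in limma with array weights and 0.0325 without vehicle rat 1 (differences of 0.22 each), and its difference was 0.095 with Bmal1 as a covariate and 0.12 without vehicle rat 3. Egln3 and Hk2 did not pass the filter at the 40th percentile and have no value there. Above the 90th percentile of background lay 8 members in all rats, and above the 99th, 7. Same-numbered rats had correlations of deviations from -0.17 to 0.15, and 1 of 5 vehicle rats correlated best with its own number, so that the numbers were not taken as pairs. With the replicate number as a block, 0 genes and 0 members passed and the median was 0.09. Signals at or below background limit Hk2 and Egln3.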
